A study of Homo sapiens with 28 samples.

Results

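Chromatin marks at 8 genes of the pluripotency network, POU5F1, SOX2, NANOG, LIN28B, DNMT3B, SALL4, PRDM14 and DPPA4, were followed through the cell cycle of human embryonic stem cells. The genes were chosen by name, and every listed peak that overlapped a gene or the 10 kb on either side of it was taken, giving 279 of the 317841 peaks in 16 lists. The 8 windows covered 398 kb in total. The cells carried Fucci, a pair of fluorescent reporters that come and go with the phases of the cycle, and were sorted by flow cytometry into 4 fractions: cells of early G1 (labelled DN), then cells of late G1 (labelled KO2), cells in S phase (labelled AzL) and cells in G2/M (labelled AzH). All fractions came from cells kept in a defined medium with Heregulin b1 at 10 ng/ml, Activin a at 10 ng/ml, Longr3 IGF-1 at 200 ng/ml and FGF2 at 8 ng/ml, and no other treatment or genotype is named. Each fraction gave 1 ChIP-seq library for each of 4 histone marks, H3K4me3, H3K27me3, H3K27ac and H3K4me1, and 1 4C-seq library for each of the viewpoints beside GATA6 and SOX17. The series holds 28 samples, 16 ChIP libraries, 4 inputs that were not analysed here and 8 4C libraries.

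With 1 library per mark and fraction there are no replicates, so no difference between fractions could be tested, and cell-to-cell or culture-to-culture spread is unknown. How many reads each peak list rests on is unknown as well. The H3K4me3 lists were of similar length (24757 to 28735 peaks), whereas the H3K27ac lists held 30168, 32521, 10268 and 19525 peaks in the fractions from early G1 through to G2/M, and the H3K4me1 lists held between 1878 and 6280 peaks. Values of the 4 fractions are given in cycle order throughout (early G1 first, then late G1, S phase and last G2/M).

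POU5F1 (also called OCT4), SOX2 and NANOG are transcription factors that bind together at many sites and keep one another and the rest of the network expressed. H3K4me3 is found at active and poised promoters, H3K27ac at active promoters and enhancers, H3K4me1 at enhancers, and H3K27me3 is laid down by Polycomb at silent developmental genes. In embryonic stem cells the promoters of developmental genes often carry H3K4me3 and H3K27me3 together, while those of pluripotency genes are known for H3K4me3 and H3K27ac.

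Promoter sequences help to place the marks, since H3K4me3 is known to follow CpG-rich DNA. RefSeq promoter sequences (GRCh38.p14, from 250 bases before to 50 after a start) were at hand for 5 of the 8 genes, and 3 are printed, SOX2 and NANOG as core factors with unlike CpG content and DPPA4 as a gene with the CpG count of NANOG but a much taller H3K4me3 peak. The LIN28B and DNMT3B entries start well inside the RefSeq gene and are not printed. The DPPA4 entry starts 2.09 kb inside the longest RefSeq extent of the gene, which limits its match to the peak. They are SOX2 at chr3:181711675-181711974 on the plus strand, NANOG at chr12:7789152-7789451 on the plus strand and DPPA4 at chr3:109337497-109337796 on the minus strand. Capitals mark 5 motifs searched on both strands: ATGCAAA (the core of the octamer bound by POU factors), ACAATG (SOX factors), GGGCGG (the GC box), CCAAT and TATAAA.
SOX2: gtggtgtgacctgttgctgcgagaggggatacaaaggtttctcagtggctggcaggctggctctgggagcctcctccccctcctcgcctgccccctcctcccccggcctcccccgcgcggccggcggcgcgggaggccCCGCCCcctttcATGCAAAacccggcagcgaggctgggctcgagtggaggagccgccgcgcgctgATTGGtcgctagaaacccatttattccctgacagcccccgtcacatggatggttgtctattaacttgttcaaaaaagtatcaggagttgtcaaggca
NANOG: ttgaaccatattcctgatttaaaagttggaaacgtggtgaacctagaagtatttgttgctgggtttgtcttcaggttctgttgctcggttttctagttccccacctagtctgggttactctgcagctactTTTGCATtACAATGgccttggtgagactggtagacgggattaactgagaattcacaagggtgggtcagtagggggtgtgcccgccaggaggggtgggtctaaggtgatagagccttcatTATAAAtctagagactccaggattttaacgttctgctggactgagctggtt
DPPA4: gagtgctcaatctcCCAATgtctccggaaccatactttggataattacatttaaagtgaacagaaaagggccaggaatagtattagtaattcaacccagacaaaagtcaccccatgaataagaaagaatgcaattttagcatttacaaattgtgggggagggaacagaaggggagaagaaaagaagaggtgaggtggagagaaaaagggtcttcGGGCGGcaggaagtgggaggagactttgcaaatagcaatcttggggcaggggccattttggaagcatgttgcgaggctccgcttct
The SOX2 promoter held 20 CpG and was 63.3% GC, against a median of 14 CpG and 58.7% GC over 35116 RefSeq promoters. The NANOG promoter held 5 CpG, with 46.7% GC, and the DPPA4 promoter also held 5 CpG, with 45.3% GC. The octamer core was found in SOX2 (first base at position -100 from the start) and in NANOG (-120), and 4.46% of all promoters hold it. In NANOG the SOX motif lay beside the octamer core, at -112, and 10.8% of promoters hold that motif. The GC box was found in SOX2 (-112) and DPPA4 (-36), CCAAT in SOX2 (-47) and DPPA4 (-236), and TATAAA in NANOG (-1); these occur in 45.0%, 34.6% and 11.5% of promoters. A match describes the letters and does not show binding. Peaks are in hg19 coordinates, so sequences and peaks were paired by gene name only.

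H3K4me3 was listed at the start site of all 8 genes in every fraction, counting peaks within 1 kb of the start. The tallest such peak covered the start itself at 6 genes in each fraction. Of 32799 H3K4me3 regions of any length, merged over the 4 fractions, 47.7% were listed in all fractions. That share was not computed for long regions only. The genes' peaks were long as well as constant: their median length was 3.33, 3.36, 3.63 and 3.11 kb, against medians of 0.675, 0.5, 0.55 and 0.475 kb for all peaks of the same lists. Those lists hold peaks of every kind and not only peaks at start sites. Their median height stood at percentile 98.6, 98.0, 98.1 and 94.5 of its list. Peak height is the authors' deposited signal, whose scaling is not given, so each height was also expressed relative to the median of the 14664 regions that were listed in all fractions and had a height, called constant regions here (relative height, where 1 is a typical region of that library). Of these constant regions 3261 were at least 2.05 kb long, as were the merged regions of all 8 genes.

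The 8 genes did not share this height evenly. SOX2, DNMT3B, SALL4, PRDM14 and DPPA4 ranked between percentile 93.7 and 99.7 in all fractions, while POU5F1, LIN28B and NANOG ranked between 46.9 and 82.2. Of the 3 genes at the core of the network, SOX2 was therefore in the upper group, and POU5F1 and NANOG in the lower. The groups were drawn from these heights, so their lack of overlap by height is no separate support for the split. Ranking the same heights among peaks of at least 500 bp adds none either. There the lower group stood between percentile 8.13 and 68.8 and the upper between 87.0 and 99.5. By the deposited score they overlapped in early G1, where POU5F1 (percentile 91.7) passed SALL4 (90.8) and SOX2 (91.6) and stood level with DPPA4 (91.7).

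**Figure D1:**
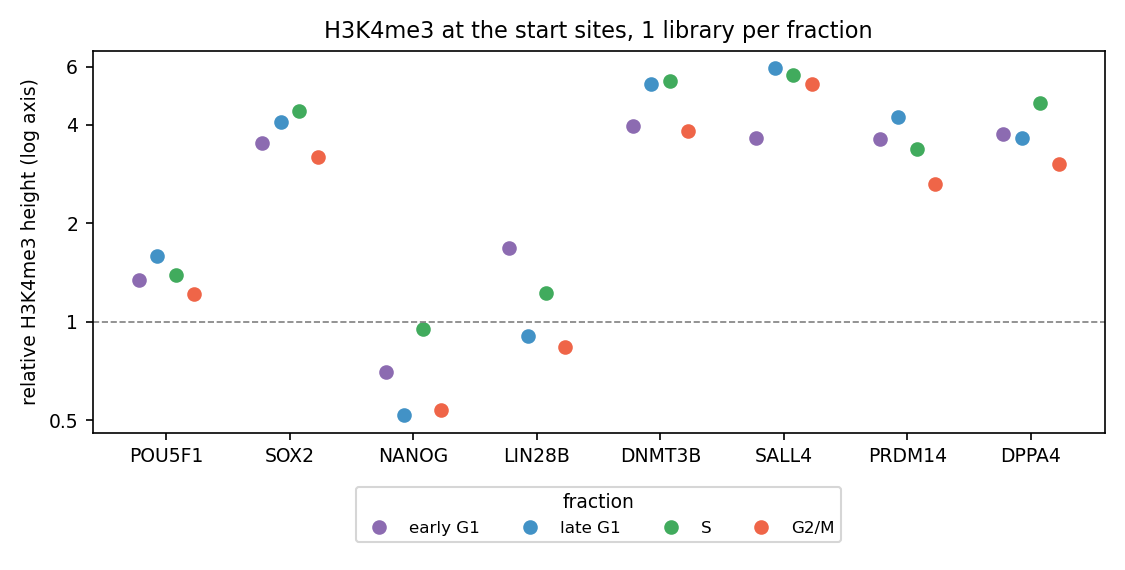
Relative H3K4me3 height (peak height over the library's median of regions listed in all fractions, log axis) at the start site of each gene, with 1 point per fraction and a dashed line at 1. SOX2, DNMT3B, SALL4, PRDM14 and DPPA4 lie between 2.63 and 5.95 in every fraction, and POU5F1, NANOG and LIN28B between 0.519 and 1.68.

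POU5F1 (chr6:31132114-31138451, minus strand) had H3K4me3 heights of 180, 104, 107 and 91.6, or 1.34, 1.59, 1.39 and 1.21 times the typical region. Its start-site peak was 2.35 to 2.85 kb long and reached from the start into the gene. The early G1 peak stood at percentile 75 by height, below its rank by score. Further H3K4me3 peaks lay 11.3 to 13.2 kb past the start, beyond the gene's end, on the side of the neighbouring gene TCF19.

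SOX2 (chr3:181429712-181432223, plus strand) is a gene of only 2.51 kb, and its H3K4me3 peak was longer than the gene in every fraction, at 7.63, 6.83, 7.35 and 5.33 kb. Its heights were 469, 266, 338 and 241, with relative heights of 3.5, 4.07, 4.40 and 3.19. The peak therefore ran from upstream of the start to past the end of the gene.

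NANOG (chr12:7941992-7948657, plus strand) had the lowest H3K4me3 height of the 8 genes in every fraction: 93.9, 33.9, 73.0 and 40.8. Relative to the typical region these were 0.701, 0.519, 0.949 and 0.539, so NANOG stayed under the typical region throughout. Its peak was 2.05, 1.33, 1.95 and 0.725 kb long, and in G2/M it was broken into 3 listed peaks.

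LIN28B (chr6:105404923-105531207, plus strand), whose RNA-binding protein blocks maturation of let-7 microRNAs, varied most among the genes. Its heights of 226, 59.4, 94.1 and 63.5 gave relative heights of 1.68, 0.907, 1.22 and 0.839, above the typical region in early G1 and S and below it in late G1 and G2/M.

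DNMT3B (chr20:31350191-31397162, plus strand), a de novo DNA methyltransferase, had heights of 532, 348, 418 and 289 and relative heights of 3.97, 5.31, 5.43 and 3.82. SALL4 (chr20:50400583-50419048, minus strand), a zinc finger transcription factor, had heights of 489, 389, 437 and 401 and relative heights of 3.65, 5.95, 5.68 and 5.31. These were the tallest members, DNMT3B in early G1 and SALL4 in the other fractions. Both genes are on chromosome 20.

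PRDM14 (chr8:70963886-70983562, minus strand), a zinc finger regulator of pluripotency, had heights of 483, 276, 258 and 199 and a peak of 6.48, 6.45, 6.90 and 5.23 kb. DPPA4 (chr3:109044988-109056419, minus strand), a nuclear protein of pluripotent cells, had heights of 501, 239, 358 and 229 and a peak of 6.08, 7.10, 6.68 and 5.25 kb. Together with SOX2 these 2 genes had the longest H3K4me3 peaks, each above percentile 99.9 of its list by length. DPPA4 and NANOG shared a CpG count of 5 in the printed promoters, and DPPA4 stood at percentile 95.4 to 99.3 for H3K4me3 height and NANOG at 46.9 to 67.6. The pair was picked for this contrast with the heights known, and a relation of CpG content to height was not tested.

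Between S and G2/M the genes moved in the same direction. In G2/M the relative H3K4me3 height was lower than in S at all 8 genes, with a median log2 ratio of -0.49, from -0.82 (NANOG) to -0.10 (SALL4). Over all regions the median log2 ratio was -0.03, and 52.3% of regions were lower in G2/M, or 59.7% of the 3261 regions at least as long as the shortest region of the 8 genes (2.05 kb). The direction was the same at all 8 genes by deposited height, by rank within the list and by deposited score. Deposited and relative height are nearly the same measure for this step, since the library medians of constant regions were 76.9 in S and 75.6 in G2/M. Ranks use the same heights too, so only the score is a different value. Past 1.5-fold, NANOG (-0.82) and DPPA4 (-0.62) were lower in G2/M, 2 of 8 where 9.43% of regions were, and 0 of 8 were higher where 12.7% of regions were.

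**Figure D2:**
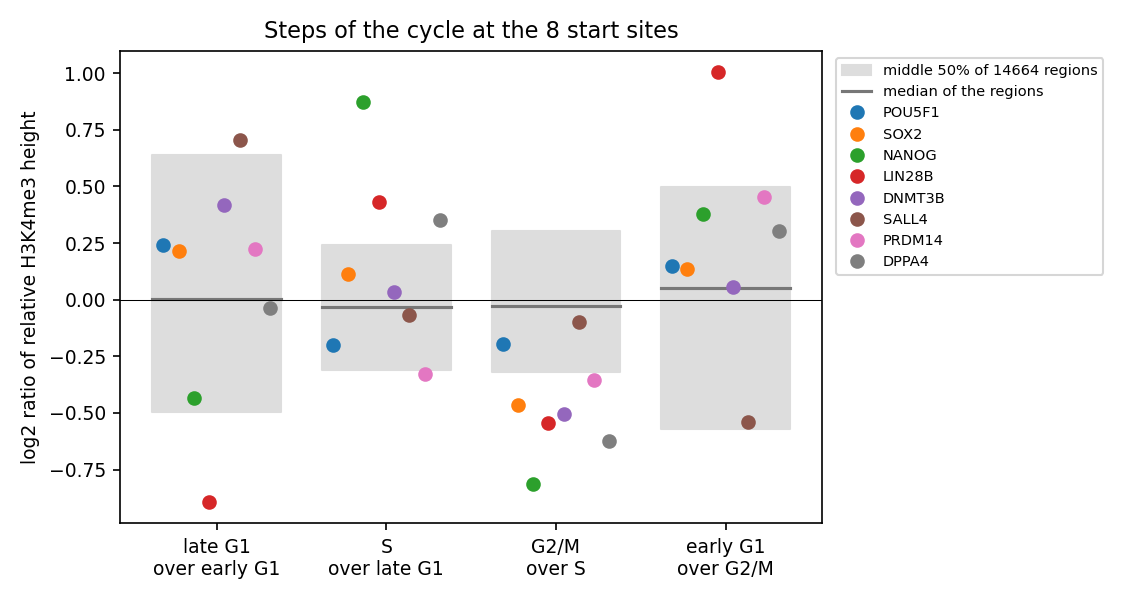
Log2 ratio of relative H3K4me3 height at each step of the cycle (later fraction over the one before it), with 1 point per gene, a grey band for the middle 50% of 14664 regions and a line at their median. All 8 genes lie below 0 for G2/M over S, while the other steps have genes on both sides of 0.

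The other steps were mixed. For late G1 over early G1, 5 genes were higher and 3 lower, with a median log2 ratio of 0.22 against 0.00 over all regions. SALL4 (0.70) was the 1 gene past 1.5-fold higher, where 26.8% of regions were, and LIN28B (-0.89) the 1 gene past 1.5-fold lower, where 20.9% of regions were. The step depended on the value used: as ranks within the lists 2 genes were higher in late G1, and by deposited height 0 were higher and 7 were past 1.5-fold lower. By the deposited score 5 genes were higher, all past 1.5-fold.

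For S over late G1, 5 genes were higher, with a median of 0.07 against -0.03 over all regions. NANOG (0.87) was past 1.5-fold higher, 1 of 8 where 6.61% of regions were, and 0 of 8 were past 1.5-fold lower where 10.3% of regions were. By the deposited score 2 genes instead of 5 were higher in S, and 0 were past 1.5-fold higher.

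For early G1 over G2/M, the step that closes the cycle, 7 genes were higher and SALL4 (-0.54) was lower, with a median of 0.23 against 0.05 over all regions. LIN28B (1.0) was past 1.5-fold higher, 1 of 8 where 20.6% of regions were, and 0 of 8 were past 1.5-fold lower where 24.6% of regions were. By the deposited score 4 genes were higher in place of 7. Apart from G2/M over S, then, the direction of a step depended on the value used, and by relative height at most 1 gene of 8 was past 1.5-fold in either direction.

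H3K27ac divided the genes differently from H3K4me3. It was listed in the windows of 8, 8, 5 and 7 genes and covered 29.8, 26.6, 12.9 and 20.9 kb of them. The G2/M count includes DNMT3B through 0.01 kb only. A share over windows of genes in general was not computed, so whether these counts are high was not tested. In S the cover of the windows was 0.485 times that in late G1, while the cover of the whole list was 0.268 times. That ratio for the windows lay between 0.391, without SOX2, and 0.521, without POU5F1, when each gene in turn was left out.

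**Figure D3:**
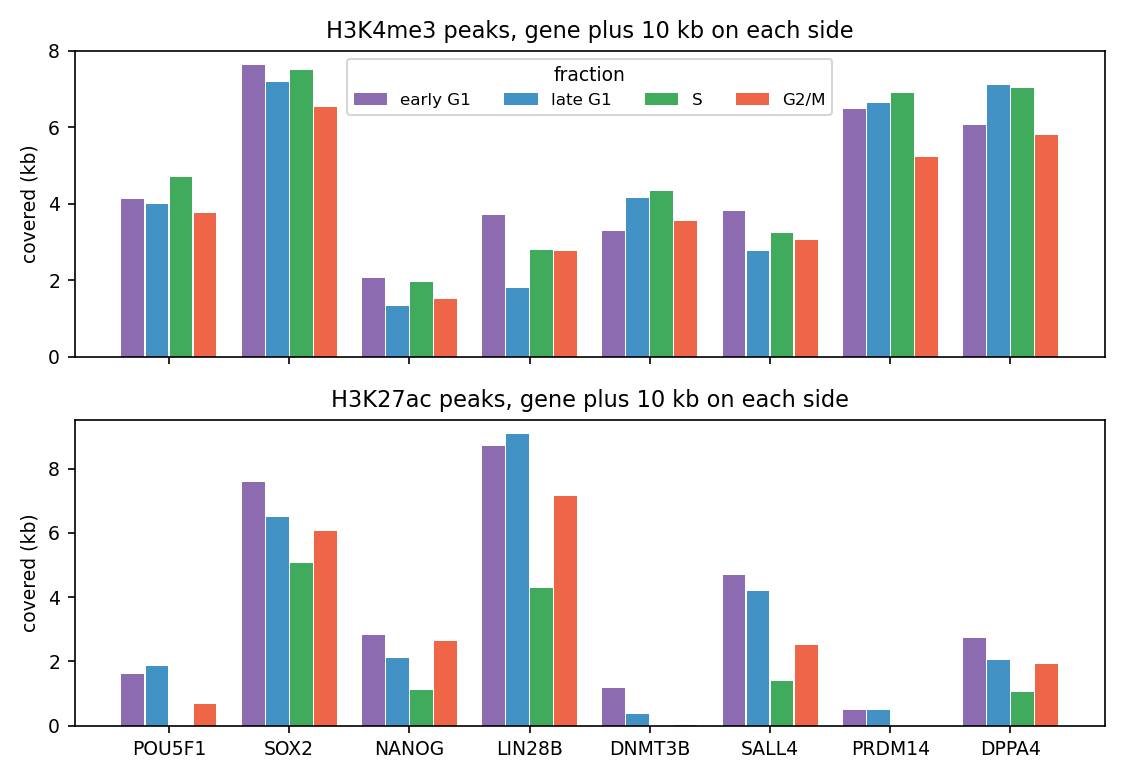
Length covered by listed H3K4me3 peaks (above) and H3K27ac peaks (below) in the window of each gene, with 1 bar per fraction. H3K4me3 was present at all 8 genes in every fraction, while H3K27ac covered 0 kb in S at POU5F1, DNMT3B and PRDM14 and 5.05 kb at SOX2.

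On the H3K4me3 region at the start site, merged over the 4 fractions, H3K27ac was listed for 6, 6, 4 and 4 of the 8 genes. Within 1 kb of the start itself it was listed for 7, 6, 4 and 5 genes, with NANOG among them in all 4 fractions. That count was not made for other start sites. Of all constant H3K4me3 regions, 44.6%, 30.8%, 8.69% and 17.9% carried an H3K27ac peak, and of those of at least 2.05 kb, 68.8%, 56.9%, 19.4% and 36.9% did. With so few genes the count of 4 of 8 has an exact Clopper-Pearson 95% interval from 15.7% to 84.3%, which covers counting error only. SOX2, LIN28B, SALL4 and DPPA4 carried H3K27ac on the merged region in all 4 fractions. That was 4 of 8 where 7.41% of constant regions did, or 17.4% of those of at least 2.05 kb. At SALL4 the S peak on the merged region lay 2.75 to 3.40 kb past the start. The long H3K4me3 peak of SALL4 in S ended before it, at 2.65 kb. A short H3K4me3 peak in S, from 2.92 to 3.02 kb, lay within that H3K27ac peak. No H3K27ac was listed within 1 kb of the SALL4 start in S.

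Since the S list was the shortest, the lists were also cut to their best 10268 peaks by score, a choice made after the data were seen. The same 4 genes, SOX2, LIN28B, SALL4 and DPPA4, then carried H3K27ac in late G1, where 14.6% of constant regions did, and in G2/M, where 11.7% did. In early G1 they were joined by DNMT3B, 5 of 8 where 24.5% of constant regions carried it. These shares are over constant regions of any length. They were not computed for those of at least 2.05 kb, which carried H3K27ac more often in the full lists. The list of genes was thus alike in late G1, S and G2/M at equal list length.

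**Figure D4:**
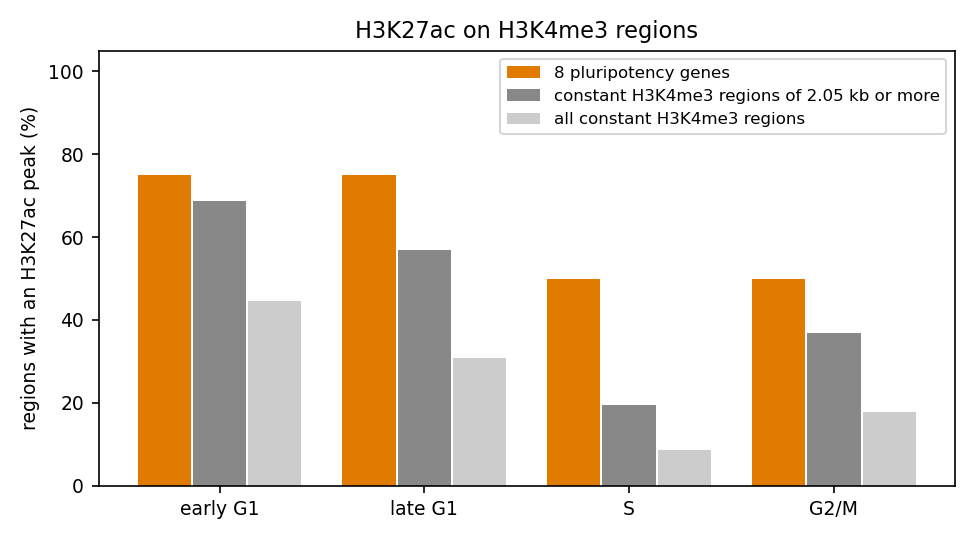
Share of H3K4me3 regions, merged over fractions, that overlapped a listed H3K27ac peak in each fraction. Bars are for the regions at the start sites of the 8 genes, for constant H3K4me3 regions of 2.05 kb or more, and for all constant H3K4me3 regions. In S the share was 4 of 8 for the genes, 19.4% for the long regions and 8.69% for all regions.

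SOX2 had the tallest H3K27ac of the 8 genes in every fraction, and it lay on both sides of the start. The upstream elements listed in all fractions lay from -5.04 to -0.287 kb, and a broad element lay from 1.99 to 5.89 kb, starting inside the gene and ending past it. This downstream element had heights of 78.3, 62.3, 59.8 and 56.4, at percentile 99.5, 99.2, 99.9 and 99.7 of the H3K27ac lists. Of the 10 merged H3K27ac elements in the SOX2 window, 5 were listed in all fractions.

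At NANOG, H3K27ac stood mostly beside H3K4me3. Elements upstream, from -1.57 to -0.192 kb, and past the gene's end, from 8.41 to 10.6 kb, were listed in all 4 fractions, 4 of the 6 elements in the window. The upstream element nearest the start had heights of 33.7, 22.8, 15.2 and 25.6, and the one before it 39.2, 31.6, 22 and 30.3. Only in late G1 did an H3K27ac peak, of height 21.9, overlap the H3K4me3 region.

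At POU5F1 the H3K27ac peaks were upstream as well, from -3.27 to -0.700 kb, and none lay on the H3K4me3 region. A further peak in late G1, 12.6 to 12.9 kb past the start, was on the side of TCF19. Upstream is the side where enhancers of the mouse Pou5f1 gene are known. The larger elements were listed in early G1, late G1 and G2/M, at heights of 39.7, 31.4 and 18.6 for the one from -2.32 to -1.30 kb and 35.4, 30.1 and 22.6 for the one from -3.07 to -2.55 kb. In S no H3K27ac peak was listed in the POU5F1 window.

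At LIN28B the H3K27ac covered the promoter and sites within the gene. The promoter element, from -3.12 to 2.30 kb, was listed in all fractions with heights of 70.2, 60.6, 26.4 and 48.3. Elements within the gene from 12.4 to 13.1, 67.3 to 67.9 and 68.0 to 68.9 kb past the start were also listed in all 4. LIN28B was thus high in H3K27ac and near the typical region in H3K4me3, with 8.70, 9.08, 4.30 and 7.15 kb of H3K27ac in the longest window of the 8, 146 kb.

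At SALL4 the main H3K27ac element lay inside the gene, from 2.75 to 5.57 kb past the start, with heights of 58.3, 51.4, 26.5 and 32.1. It began near the end of the H3K4me3 peak, and elements nearer the start were listed outside S only. DPPA4 had its H3K27ac on the start site itself, from -1.16 to 1.29 kb, with heights of 68.1, 61.3, 32.6 and 33.8, at percentile 95.1 to 99.2 of the lists.

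DNMT3B and PRDM14 had little H3K27ac despite their tall H3K4me3. At DNMT3B peaks covered 1.19, 0.36, 0 and 0.01 kb of the window, and a peak at the start site was listed in early G1 only, at height 36.4. The G2/M value is the end of a peak that crosses the edge of the window. At PRDM14 peaks covered 0.5 kb in early G1 and in late G1 and none were listed in S or G2/M. The tallest PRDM14 peak, of height 25.7, stood at percentile 49.4 of the early G1 list. A peak missing from a list shows only that none passed the caller at this unknown depth.

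**Figure D5:**
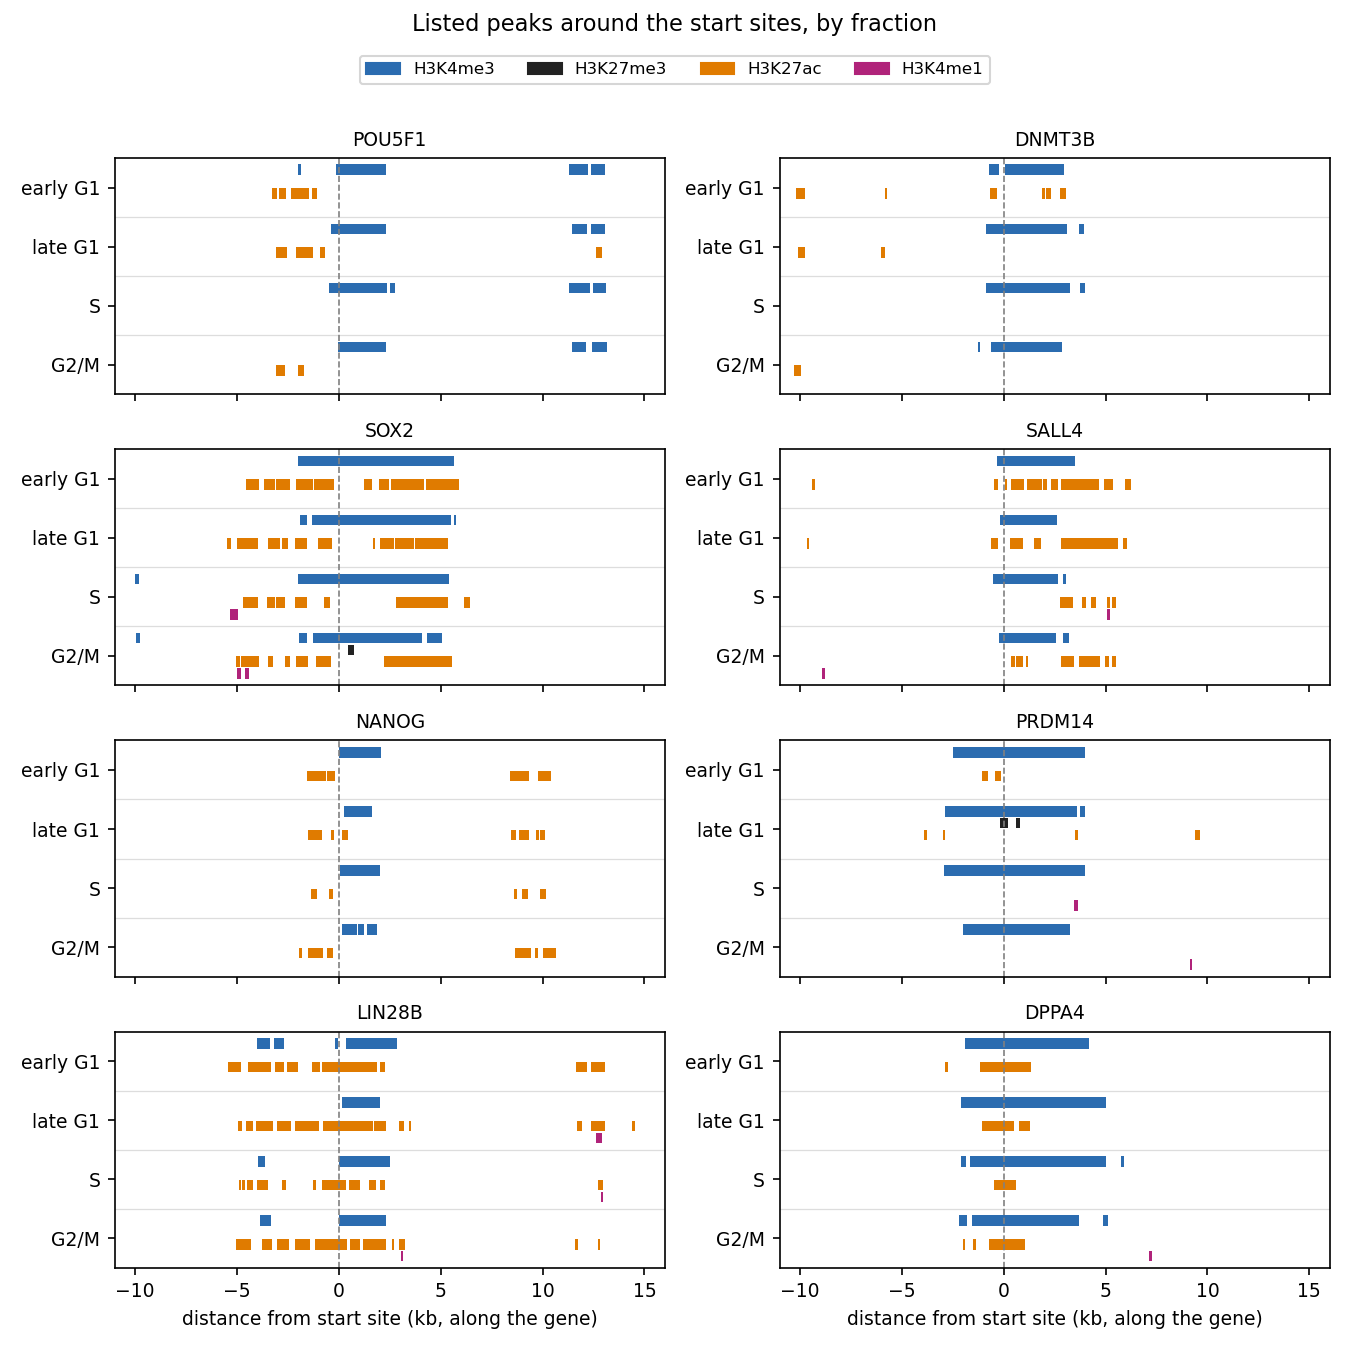
Listed peaks of the 4 marks at each gene by distance from its start site in kb, positive along the gene, with 1 row per fraction and the dashed line at the start; peaks more than 16 kb past the start are outside the frame. H3K4me3 sits within 1 kb of the start of all genes. H3K27ac lies upstream at POU5F1, upstream and downstream at NANOG and SOX2 and on the start at DPPA4. H3K27me3 appears at SOX2 in G2/M and at PRDM14 in late G1.

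Over all 8 windows the H3K27ac peaks merged into 67 elements, of which 16, or 23.9%, were listed in all fractions, compared with 10.4% of the 49370 elements of the whole lists. SOX2 and LIN28B had 5 each and NANOG 4, and SALL4 and DPPA4 had 1 each. POU5F1, DNMT3B and PRDM14 had 0.

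H3K27me3 was listed in the windows of 0, 1, 0 and 1 genes, PRDM14 in late G1 and SOX2 in G2/M, and overlapped the H3K4me3 region there. Of all constant H3K4me3 regions, of any length, 18.8%, 18.6%, 14.8% and 15.7% carried it, against 0, 1, 0 and 1 of 8 genes. In any fraction 21.8% of these regions did, against 2 of 8 genes, so that count of genes was near that of regions. The shares were not computed for regions of at least 2.05 kb, the length that all 8 genes reached. The peaks themselves were short and of middling height: at PRDM14 peaks of 0.325 and 0.175 kb, the taller at percentile 52.4 of its list, and at SOX2 a peak of 0.275 kb at percentile 60.9. Neither gene had such a peak in another fraction. With 25 kb flanks in place of 10 kb, 2, 4, 3 and 3 genes had an H3K27me3 peak, covering 2.13, 4.13, 2.3 and 3.3 kb. For neither width was a share over windows of genes in general computed, so whether these counts are high or low was not tested.

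The endoderm loci of the same study had more H3K27me3. In the windows of the 8 genes together it covered 0, 0.5, 0 and 0.275 kb. In windows of 34.9 kb around the 4C site with the most reads, H3K27me3 covered 19.2, 19.4, 17.7 and 19 kb beside GATA6 and 22.3, 22.6, 20.3 and 21.4 kb beside SOX17, genes of endoderm transcription factors. H3K27ac was 0 kb at both endoderm loci in every fraction, and H3K4me3 at most 0.475 kb. These loci were placed from the 4C table, so their windows need not hold the promoters.

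H3K4me1 lists were short, and few of their peaks were at the 8 genes. The windows held 0.25, 0.5, 1.05 and 1.23 kb of the 248, 531, 947 and 906 kb that the lists covered. Windows of other genes were not counted, so whether the mark was scarce at these genes was not tested. It was listed in 1, 2, 4 and 5 windows, with 1, 3, 6 and 9 peaks that merged into 16 elements. None was listed in all 4 fractions, as were 0.281% of the 16001 elements of the whole lists, and 8 of the 16 lay on an H3K27ac peak, as did 29.5% of all elements. LIN28B held 7 of them, among them sites from 12.6 to 13.0 and 68.6 to 68.9 kb past the start that lay on its constant H3K27ac elements. SOX2 had an H3K4me1 element from -5.36 to -4.81 kb, at the outer end of its upstream H3K27ac, in S and G2/M. POU5F1 and NANOG had no listed H3K4me1 peak.

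The 4C viewpoints were not at these genes, and reads in their windows are given as a description. Among the 104 restriction sites in windows on other chromosomes than GATA6, 11.5%, 15.4%, 23.1% and 9.62% had a read, against 7.28%, 8.26%, 9.18% and 5.17% of all such sites. The exact Clopper-Pearson 95% intervals lay above the value of all sites in late G1 (9.06% to 23.8%) and S (15.4% to 32.4%) and held it in early G1 and G2/M; neighbouring sites of 1 window are not independent. LIN28B held 40 of the 104 sites and 8 of the 24 with reads in S, while none of the 3 SOX2 sites or the 6 PRDM14 sites had a read in any fraction. From SOX17, 7.14%, 8.16%, 11.2% and 3.06% of 98 sites had a read, against 7.55%, 6.44%, 8.23% and 4.37% of all. Those intervals, from 5.74% to 19.2% in S, held the value of all sites in every fraction. The libraries held between 7491195 and 17076409 reads, which are PCR products without molecular identifiers, so intervals cover counting error only.

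PRDM14 lies on chromosome 8 with the SOX17 viewpoint. Of its 6 restriction sites 5, 4, 5 and 2 had reads, 293, 239, 128 and 208 reads in all. Among 5549 other sites of chromosome 8 that lay 10 to 20 Mb from the viewpoint, as PRDM14 does at 15.6 Mb, 73.4%, 59.5%, 76.6% and 44.6% had reads, a comparison chosen after the data were seen. Reads per site were 48.8, 39.8, 21.3 and 34.7 at PRDM14 and averaged 91.6, 74.9, 45.0 and 89.3 at those sites. PRDM14 was the only one of the 8 genes on the chromosome of a viewpoint.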

How the data were processed

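ChIP peaks of 4 marks and 4C reads were taken for 4 sorted fractions, 1 library each. Per the submitters' processing notes, Bowtie 0.12.7 is named along with hg19 and mm9, with no role stated for any of them; coordinates were read as hg19. Neither the caller's settings nor any use of the inputs is given in the sources used here. Each deposited peak list holds 1 library, with a signal column read from the values as peak height and a score column that is more negative for taller peaks. The deposited position of the tallest point was read from the values too. Heights of 0 on the chromosomes coded 22 to 24 were treated as missing. On chromosome 20 height and score ranked H3K27ac peaks less alike (Spearman 0.857 to 0.918) than on chromosome 1 (0.971 to 0.985), which touches DNMT3B and SALL4. The deposited 4C table holds counts, reads per restriction site.

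Gene intervals are hg19, and strands, which place the start sites, were entered by hand. No hg19 annotation was at hand, so exons and introns are not given and other pluripotency genes were not placed. Peaks overlapping by at least 1 bp were merged over fractions. Python 3.11.15, numpy 2.4.6, pandas 2.3.3, scipy 1.17.1 and matplotlib 3.10.9 were used. Code for overlap, covered length and fold change was tested on simulated data, while the percentile code was not. The 8 genes, all of which are named, and the comparisons were chosen with earlier results of these data known. No p-value was computed. Gene order came from a RefSeq table of GRCh38.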

Additional observations from a re-analysis of the deposited data

How the results depend on the processing

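The count of genes with H3K4me3 at the start site stayed at 7 or 8 of 8 under every alternative tried (the upper part of the lists by score, equal numbers of peaks, peaks of at least 500 bp, and 0.5 or 2.5 kb around the start). No paired analysis was possible because each group has 1 library and no test was made. Without the 10 kb flanks, genes with H3K27ac numbered 5 in early G1, 3 in S and 4 in G2/M, and genes with H3K4me1 numbered 3 in G2/M; under the other alternatives the H3K27ac counts kept within 1.5 times. With 25 kb flanks, genes with H3K27me3 numbered 2, 4, 3 and 3, and with peaks of at least 500 bp they numbered 0 in late G1 and G2/M. Shares over windows of genes in general were not computed under any setting. H3K4me1 counts fell to 0 in every fraction with peaks of at least 500 bp, to 0, 2 and 3 in early G1, S and G2/M in the upper part of the lists, and to 1 in S and 2 in G2/M at equal numbers of peaks. With heights as deposited, 0 genes were past 1.5-fold higher and 7 past 1.5-fold lower for late G1 over early G1 (0 higher by any amount), 3 higher for S over late G1, and 7 higher for early G1 over G2/M; the library median of constant regions was 65.5 in late G1 and 134 in early G1. At 2-fold, 0 genes were past the limit in each direction at late G1 over early G1, 0 higher for S over late G1 and 0 lower for G2/M over S. With ranks, 2 were higher for late G1 over early G1. With scores, chosen after the data were seen, 5 were past 1.5-fold higher for late G1 over early G1, 0 for S over late G1 (2 higher by any amount), and 2 higher and 3 lower for early G1 over G2/M (4 higher by any amount); the cause was not tested. With scores in place of heights, 31 H3K4me3 and 24 H3K27ac percentiles moved by more than their counting interval, and 1 and 4 did not. Ranked among peaks of at least 500 bp, 32 H3K4me3 and 21 H3K27ac percentiles moved, among them NANOG H3K4me3 in late G1 to 8.13, LIN28B H3K4me3 in late G1 to 33.3, POU5F1 H3K27ac in late G1 to 27.3 and SALL4 H3K27ac in G2/M to 11.7. The unknown depth limits what the absence of a peak shows.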
